A study of Mus musculus with 4 samples.

Results

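The aminoacyl-tRNA synthetases were examined as a family of 36 genes, 20 encoding cytosolic and 16 encoding mitochondrial enzymes, out of 50600 gene identifiers in the count tables. Members were taken by gene symbol, with a name ending in 2 marking the mitochondrial enzymes, and all 36 were found. Earlier results of these data were known when they were chosen. The material was mouse regulatory T cells of strain C57BL/6NJ, the CD4 T cell subset defined by the transcription factor Foxp3, sequenced as 4 libraries that the labels number as biological replicates 1 to 4 of 1 group. The labels call the cells primary, link a protocol for the differentiation of CD4 T cells, and give the same donor for all 4 libraries, with no age or sex. Names in the file headers carry the words activated and 72 h. No genotype, transgene or added treatment is named, and there is no second group. The number of animals behind each library is not stated, so every p-value below rests only on these 4 libraries. The spread between them may be partly technical.

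Aminoacyl-tRNA synthetases attach each amino acid to its transfer RNA, the step that ties each codon to its amino acid in translation. Most amino acids have a cytosolic enzyme for nuclear-encoded messages and a separate mitochondrial enzyme, also encoded in the nucleus, for the few proteins made on mitochondrial ribosomes. The glycine and lysine enzymes Gars and Kars serve both compartments from a single gene each. Class I and class II enzymes are unrelated in fold, and a set of cytosolic enzymes assembles with the scaffolds Aimp1, Aimp2 and Eef1e1 into the multi-tRNA synthetase complex. In activated T cells the demand for protein synthesis is known to rise, and uncharged transfer RNA is sensed by the kinase Eif2ak4 (GCN2), which acts through the transcription factor ATF4 on amino acid and synthetase genes.

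The libraries held 51460018 to 121477975 counts, and the counts of members ran from 551 (Wars2 in replicate 4) to 117019 (Lars2 in replicate 1), so that counting alone gives a coefficient of variation (CV, SD over mean) of at most 4.26% for any member in the shallowest library. Levels are given in TPM, a unit that divides counts by the exon length in the deposited tables and scales each library to the same total, and a value after ± is the SD over the 4 libraries. Regulatory T cell markers (Foxp3, Il2ra, Ctla4, Ikzf4) had means of 124 to 2168 TPM and T cell markers (Cd3e, Cd3g, Cd4, Trac) means of 124 to 1182 TPM. Among 25 markers of other cells, Cd8b1 was highest at 11.5 TPM, followed by Zbtb46 (4.51 TPM), Epcam (3.12 TPM) and Adgre1 (2.55 TPM), and the others were under 1 TPM. The granulocyte genes S100a8, S100a9 and Elane were at 0 in every library. Xist, expressed from the inactive X chromosome, was at 173 and 199 TPM in replicates 1 and 2 but 0.592 and 0.758 TPM in replicates 3 and 4. The Y-linked gene Eif2s3y had the opposite order, with 0.0874 and 0.133 TPM against 46.7 and 62.7 TPM, which goes against the single donor in the labels. Values are therefore given for each library below.

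Every cytosolic synthetase was above the middle of the transcriptome, while the mitochondrial enzymes, apart from Lars2, were spread around it. The median cytosolic member stood at 160 TPM and the median mitochondrial member at 29.7 TPM, beside 32.5 TPM for the 10640 protein-coding genes with at least 1 TPM in every library. In these bulk libraries, fewer expressing cells and less RNA per cell cannot be told apart. At least 10 TPM in every library was reached by 33 of 36 members, all 20 cytosolic and 13 of 16 mitochondrial, against 37.3% of 21764 protein-coding genes. The exceptions were Ears2, Nars2 and Wars2, the mitochondrial glutamate, asparagine and tryptophan enzymes. With the length of the transcript with the longest coding sequence, Wars2 stayed below 10 TPM, while Ears2 and Nars2 passed and Pars2 and Mars2 fell below in at least 1 library. Mars2 has 11294 bases under both lengths, so its fall came only from scaling each library to the same total. A mean of 100 TPM or more was reached by 15 cytosolic members and by Lars2 alone among the mitochondrial ones, against 9.62% of protein-coding genes. These are descriptive counts of a family, with no test.

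**Figure D1:**
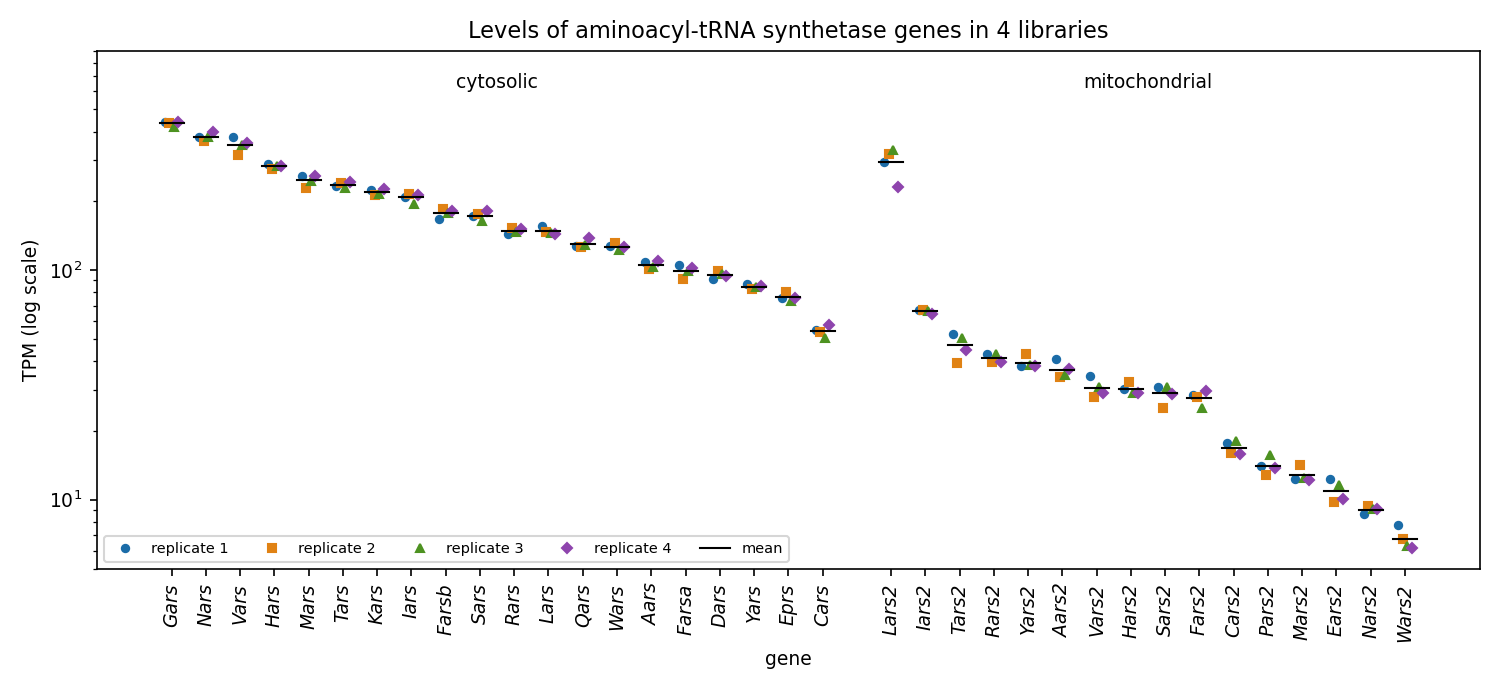
Level of each of the 36 synthetase genes in TPM (log axis), cytosolic enzymes left and mitochondrial enzymes right, each ordered by mean; symbols are the 4 replicates and the bar is their mean. Cytosolic means run from 54.2 to 434 TPM, and Lars2, at 294 TPM, stands apart from the other mitochondrial enzymes, which lie between 6.73 and 66.3 TPM.

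Gars, the glycine enzyme that serves both compartments (mm10 chromosome 6, 55038007 to 55079500), was the most abundant member by deposited length, at 439, 438, 419 and 440.2 TPM in replicates 1 to 4. Its mean of 434 ± 10.4 TPM (SD, n = 4) ranked 318 among 21764 protein-coding genes. Nars, the asparagine enzyme, followed with 378, 365, 379 and 399 TPM in replicates 1 to 4, and Vars, the valine enzyme, with 377, 317, 351 and 356 TPM in replicates 1 to 4. Nars and Vars overlapped between libraries, whereas Gars was above both in every library. The histidine enzyme Hars had a mean of 283 ± 6.35 TPM, the methionine enzyme Mars 246 ± 14.2 TPM and the threonine enzyme Tars 235 ± 5.97 TPM. Kars, the lysine enzyme shared with mitochondria, stood at 219 ± 6.63 TPM, close to the isoleucine enzyme Iars at 207 ± 9.21 TPM, and the ranges of these neighbours overlapped.

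In the middle of the cytosolic order lay Farsb (177 ± 7.84 TPM), the beta subunit of the phenylalanine enzyme, Sars (172 ± 7.57 TPM) for serine, Rars (148 ± 3.93 TPM) for arginine and Lars (147 ± 5.28 TPM) for leucine. Farsb overlapped with Sars, and Rars with Lars, so the order inside these neighbours was not resolved. Qars for glutamine (130.2 ± 5.56 TPM), Wars for tryptophan (126 ± 3.28 TPM) and Aars for alanine (106 ± 4.01 TPM) came next. The low end held Farsa (99.3 ± 6.15 TPM), the alpha subunit of the phenylalanine enzyme, Dars (95.1 ± 2.84 TPM) for aspartate, Yars (84.6 ± 1.62 TPM) for tyrosine and Eprs (76.0 ± 2.88 TPM), whose protein carries both the glutamate and the proline activity. Cars, the cysteine enzyme, was lowest at 54.8, 53.7, 50.8 and 57.6 TPM in replicates 1 to 4, below every other cytosolic member in each library. The 8 enzymes of the multi-tRNA synthetase complex (Dars, Eprs, Iars, Kars, Lars, Mars, Qars, Rars) had a median of 148 TPM and the other 12 cytosolic members 175 TPM, with ranges of 76.0 to 246 and 54.2 to 434 TPM that overlapped widely. This order turned with the length of the transcript with the longest coding sequence, to 179 and 165 TPM, so the groups were not ordered. By enzyme class, with Eprs counted in both, the medians were 139 TPM for 10 class I and 177 TPM for 11 class II members.

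Among the mitochondrial enzymes, Lars2 for leucine (chromosome 9, 123366927 to 123462666) was at 295, 319, 334 and 229.7 TPM in replicates 1 to 4. It was the highest mitochondrial member in every library by a wide margin and ranked 566 among protein-coding genes. Iars2, for isoleucine, came second at 67.2, 67.1, 66.4 and 64.6 TPM in replicates 1 to 4. Its 4 values lay within a CV of 1.81%, the smallest of any member. Tars2, for threonine, was at 52.9, 39.4, 50.6 and 44.9 TPM in replicates 1 to 4, and its range overlapped with that of the arginine enzyme Rars2 (41.4 ± 1.95 TPM). From Rars2 downward each neighbour in the order overlapped with the next: Yars2 for tyrosine (39.5 ± 2.38 TPM), Aars2 for alanine (36.8 ± 2.97 TPM), Vars2 for valine (30.7 ± 2.91 TPM), Hars2 for histidine (30.4 ± 1.64 TPM), Sars2 for serine (29.0 ± 2.72 TPM) and Fars2 for phenylalanine (27.8 ± 1.94 TPM). A gap without overlap separated these from Cars2 for cysteine (16.9 ± 1.09 TPM), Pars2 for proline (14.1 ± 1.20 TPM), Mars2 for methionine (12.7 ± 0.946 TPM) and Ears2 for glutamate (10.9 ± 1.19 TPM). Nars2, for asparagine, was at 8.67, 9.35, 9.07 and 9.14 TPM in replicates 1 to 4. Wars2, for tryptophan, was the lowest member of the family, at 7.73, 6.76, 6.27 and 6.14 TPM in replicates 1 to 4. Mitochondrial class I and class II members had medians of 30.7 and 29.0 TPM.

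Summed over enzymes, the 20 cytosolic members made up 3770 ± 77.8 TPM and the 16 mitochondrial members 713 ± 51.8 TPM (SD, n = 4). The ratio of the sums was 5.19, 5.12, 4.89 and 6.04 in replicates 1 to 4. Lars2 alone held 40.2%, 44.0%, 44.1% and 35.98% of the mitochondrial sum, and without it the ratios became 8.68, 9.13, 8.76 and 9.44. Replicate 4, the library with the highest ratio, was also the one with the lowest Lars2.

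The main comparison set each mitochondrial enzyme against the cytosolic enzyme for the same amino acid within each library, as a difference of log2(TPM + 0.1), a scale that slightly understates differences at low levels. The cytosolic enzyme was higher in all 4 libraries in 15 of 16 pairs. The median difference over the 16 pairs was 2.27, 2.62, 2.20 and 2.43 in replicates 1 to 4, a mean of 2.38 ± 0.19 (SD, n = 4) or 5.20-fold. Replicates 1 and 2 and replicates 3 and 4, which differed in Xist, overlapped in this median. In an exact two-sided sign-flip test over libraries, 2 of 16 assignments gave a median as large, an exact p of 0.13 and the fewest that 4 libraries allow. The test therefore cannot pass 0.05, and each single pair had the same exact p of 0.13 after Benjamini-Hochberg adjustment over 17 pairs.

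**Figure D2:**
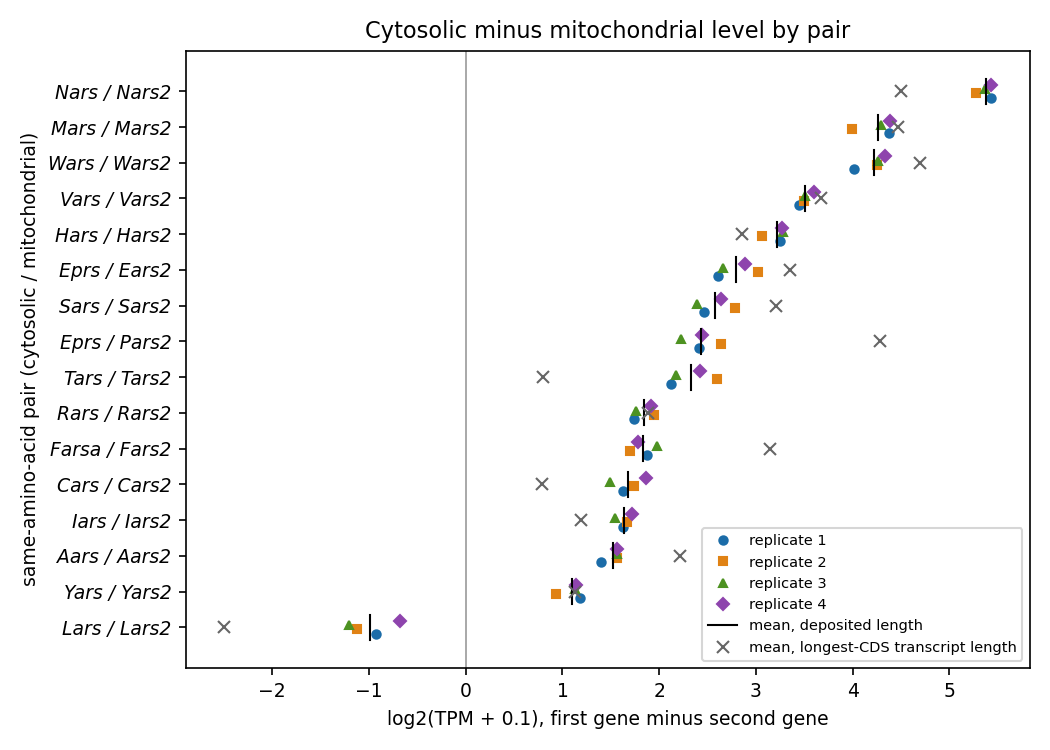
Difference of log2(TPM + 0.1), cytosolic minus mitochondrial enzyme, for the 16 same-amino-acid pairs; symbols are the 4 replicates, the bar is their mean and the cross is the mean with transcript length taken from the transcript with the longest coding sequence. In 15 pairs each replicate lies above 0, and the Lars and Lars2 pair lies below 0 in all 4, with both lengths.

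By deposited length, the widest gap was between the asparagine enzymes, where Nars exceeded Nars2 by 5.43, 5.27, 5.37 and 5.43 on the log2 scale, or 41.6-fold. With the longest-coding transcript length the tryptophan pair (4.70) was wider than the asparagine pair (4.50), and without division by length Eprs against Pars2 (4.98) was the widest. Mars exceeded Mars2 by 4.37, 3.99, 4.29 and 4.39, and Wars exceeded Wars2 by 4.02, 4.25, 4.27 and 4.33. The valine pair differed by 3.51 ± 0.07 (SD, n = 4) and the histidine pair by 3.21 ± 0.10. By deposited length these 5 pairs exceeded 3 on the log2 scale in the mean. Without division by length the methionine and histidine pairs were at 2.55 and 2.11. The serine pair (3.21) and Eprs against Ears2 (4.61) and Pars2 (4.98) then exceeded 3. The patterns of the 5 pairs differed. Nars, Mars, Vars and Hars were among the 5 most abundant cytosolic members, while Nars2, Mars2 and Wars2 were among the 4 least abundant mitochondrial ones.

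Intermediate gaps were found for Eprs against Ears2 (2.79 ± 0.20), Sars against Sars2 (2.57 ± 0.18), Eprs against Pars2 (2.43 ± 0.17) and Tars against Tars2 (2.33 ± 0.22). The arginine, phenylalanine, cysteine, isoleucine and alanine pairs followed with 1.84 ± 0.10, 1.83 ± 0.12 (Farsa against Fars2), 1.68 ± 0.16, 1.64 ± 0.07 and 1.52 ± 0.08. By deposited length the tyrosine pair was the closest of the 15, with Yars above Yars2 by 1.18, 0.94, 1.13 and 1.14, or 2.14-fold. With the longest-coding transcript length the cysteine (0.79) and threonine (0.80) pairs were closer than tyrosine (1.13). Without division by length isoleucine (0.89), threonine (0.93) and cysteine (1.55) were closer than tyrosine (2.01). Yars was near the bottom of the cytosolic order and Yars2 in the upper part of the mitochondrial one.

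The leucine pair had the opposite order. Lars, the cytosolic enzyme, was at 155, 146, 145 and 143 TPM in replicates 1 to 4, against the Lars2 values given above, so that Lars minus Lars2 was -0.93, -1.12, -1.21 and -0.68 in replicates 1 to 4, with a mean of -0.99 ± 0.23 (SD, n = 4). Lars itself was steady between libraries, with a CV of 3.59%, while Lars2 had the largest CV of the 36 members, 15.6%. Gm42418, a noncoding gene that overlaps ribosomal RNA sequence, ordered the libraries as Lars2 did, with 4480, 5403, 6204 and 3374 TPM in replicates 1 to 4. The mitochondrial ribosomal RNAs did not share that order: mt-Rnr1 was at 408, 762, 499.5 and 601 TPM, lowest in replicate 1. Among 9 annotated Lars2 transcripts, 0 stretches similar to Gm42418, AY036118 or the mitochondrial ribosomal RNAs were found. Whether ribosomal RNA fragments contribute to the Lars2 counts was not tested.

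**Figure D3:**
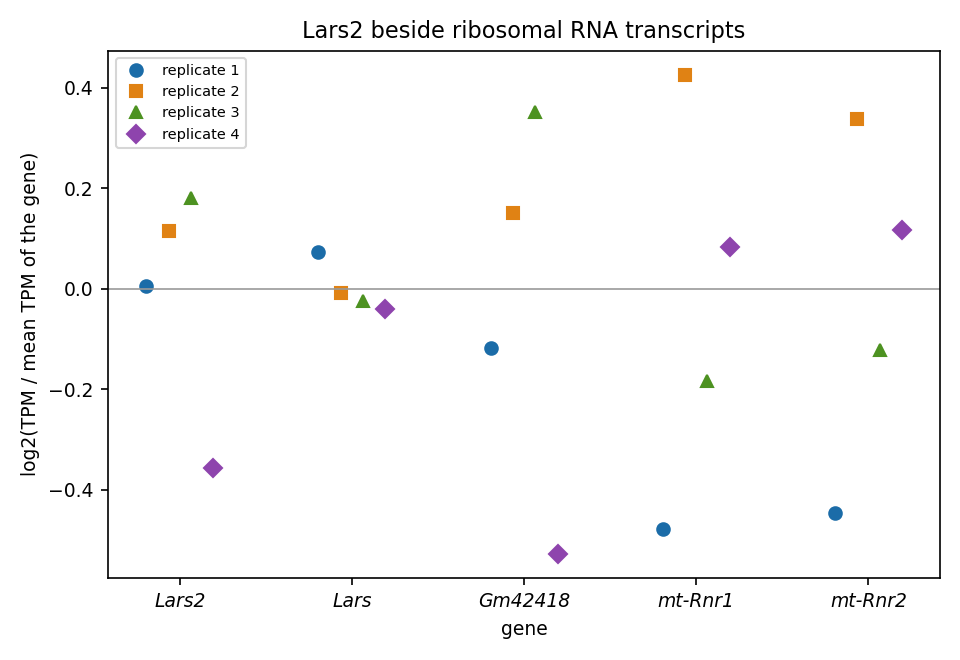
log2 of each library's TPM over the gene's mean for Lars2, Lars, Gm42418, mt-Rnr1 and mt-Rnr2; symbols are the 4 replicates. Lars2 and Gm42418 are highest in replicate 3 and lowest in replicate 4, Lars varies little, and both mitochondrial ribosomal RNAs are lowest in replicate 1 and highest in replicate 2.

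Levels of different genes depend on the length they are divided by, and the deposited length covers the exons of all transcripts of a gene. It was 18102 bases for Eprs and 11089 for Lars2, whose transcripts with the longest coding sequence have 4906 and 3894 bases. With that transcript length, an alternative added after the data were seen, the median pair difference was 2.96 in place of 2.38, and the same count of 15 pairs had the cytosolic enzyme higher in all libraries. Means of 8 members moved by over 1.5 times: Eprs to 191 TPM, Farsa to 168, Qars to 208, Sars to 323, Cars2 to 43.6, Ears2 to 18.7, Lars2 to 570 and Tars2 to 92.2 TPM. Scaling to the same total alone brought a member of unchanged length, such as Mars2, to 0.68 times its mean. The leucine difference widened to -2.50. Among the other pairs, Eprs against Pars2 rose from 2.43 to 4.28, Farsa against Fars2 from 1.83 to 3.14, Sars against Sars2 from 2.57 to 3.21 and Eprs against Ears2 from 2.79 to 3.35, all then above 3. The histidine difference fell from 3.21 to 2.85, and the threonine and cysteine differences narrowed to 0.80 and 0.79. Lars2 then passed Gars (387 TPM) as the most abundant member on average. Gars remained highest and Cars lowest among the cytosolic members, and Lars2 highest and Wars2 lowest among the mitochondrial ones. The positions between those ends are less certain than the spread between libraries shows.

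The phenylalanine enzyme is the only cytosolic member built from different subunits, alpha from Farsa and beta from Farsb, in equal number. Farsa was at 105, 91.0, 98.8 and 102 TPM in replicates 1 to 4, and Farsb at 166, 184, 177 and 181 TPM in replicates 1 to 4. Farsb was higher in all 4 libraries, with Farsa minus Farsb at -0.84 ± 0.15 on the log2 scale (SD, n = 4), again with an exact adjusted p of 0.13. With the longest-coding transcript length the sign reversed, to 0.11 ± 0.15, and without division by length the difference was -0.04, so these counts do not order the subunits.

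Replicates agreed closely for cytosolic enzymes. Of 36 members, 32 had a CV under 10%, all 20 cytosolic and 12 mitochondrial ones, against 74% of the 8113 protein-coding genes with at least 10 TPM in every library. The median CV was 3.77% for cytosolic and 7.76% for mitochondrial members, and 6.82% for those 8113 genes. The smallest values belonged to Iars2 (1.81%) and Yars (1.91%), whose level was 86.5, 82.5, 84.7 and 84.8 TPM in replicates 1 to 4, and the largest to Lars2 (15.6%) and Tars2 (12.9%). Vars had the largest CV among cytosolic members, 7.17%.

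Whether a gene varied between libraries beyond genes of its abundance was tested with edgeR's quasi-likelihood dispersion over the whole table, with Benjamini-Hochberg adjustment over 13625 genes. The test took only genes with enough counts in every library. This left out Eif2s3y, at 13, 10, 4285 and 3933 counts in replicates 1 to 4. Among the genes tested, Xist was the 1 gene called, or 0.00734%, and 0 of 36 members were called. Before adjustment, 641 genes were under 0.05, or 4.7%, and 2 members were among them. These were Lars2 and Tars2, each with an edgeR adjusted p of 0.965. DESeq2's dispersion outliers, over a table without a filter on low counts, numbered 63 genes and again 0 members. Without replicate 2, edgeR called 18 genes, and Lars2 was the 1 member among them. Replicate 2 was lowest for 16 of 36 members, and the call of Lars2 depended on leaving that library out. The log2 ratio of a gene's dispersion to the trend had a median of -1.29 over cytosolic, -0.02 over mitochondrial members and -0.21 over the 8520 tested genes at or above the abundance of the lowest member.

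**Figure D4:**
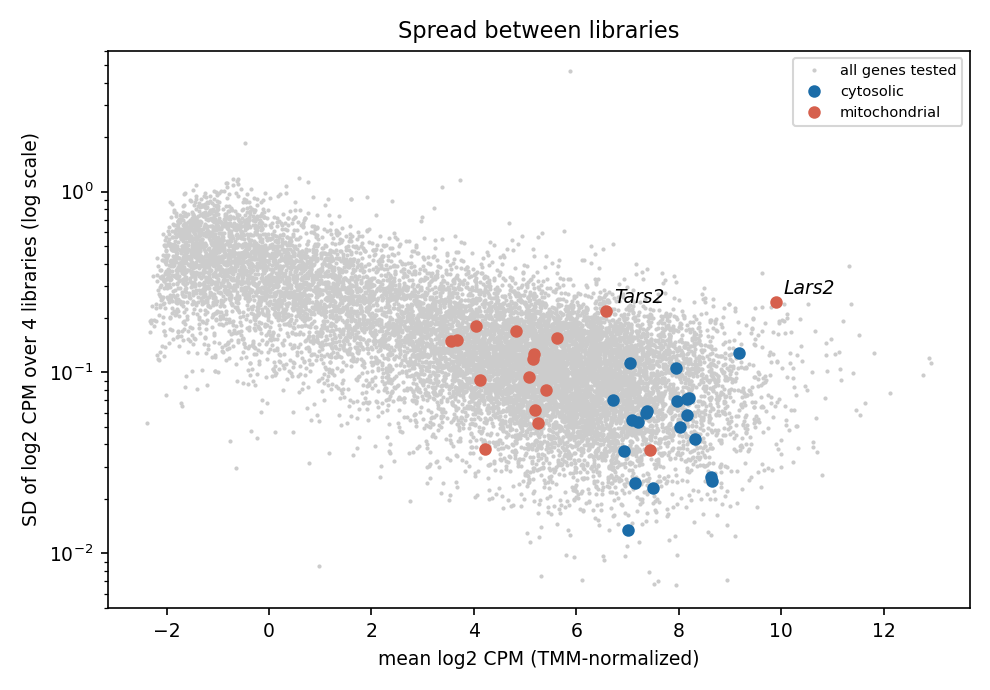
SD of log2 CPM (counts scaled to library size, TMM-normalized) over the 4 libraries (log axis) against its mean, for all 13625 genes tested (grey), cytosolic (blue) and mitochondrial (red) synthetases. The blue points lie mostly in the lower part of the grey cloud, with a median log2 dispersion ratio of -1.29, and Lars2 and Tars2 are the highest red points; the isolated grey point above 4 is Xist.

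In deviations of log2 CPM from each gene's mean, the median member lay at 0.03, -0.05, 0.02 and -0.00016 in replicates 1 to 4. For mitochondrial members the medians were 0.06, -0.07, 0.04 and -0.06, so they tended to be higher in replicates 1 and 3. Tars2 deviated by 0.19, -0.28, 0.15 and -0.06, the largest drop of any member in replicate 2, with Sars2 at -0.24 and Ears2 at -0.19 there. Lars2 had the largest drop in replicate 4, -0.35. Replicate 2 also held the largest share of counts on genes of the mitochondrial genome, 0.780%, against 0.529%, 0.692% and 0.603% in replicates 1, 3 and 4, and its part in these values was not tested.

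**Figure D5:**
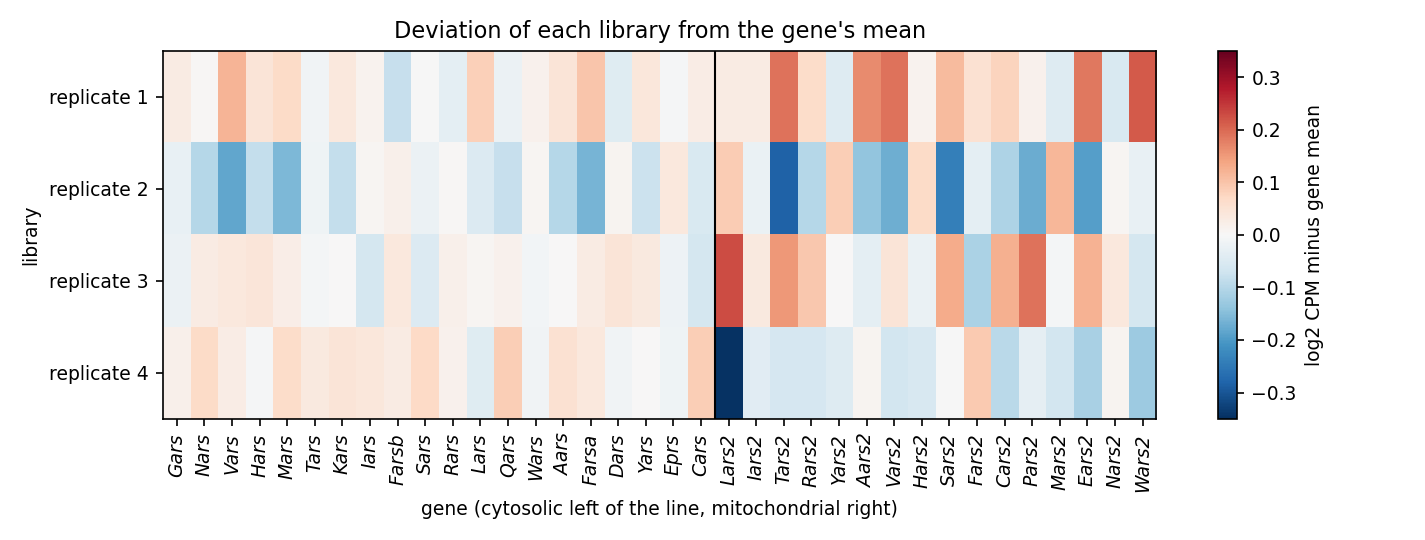
Deviation of log2 CPM in each library from the gene's mean over 4 libraries for the 36 members, cytosolic left of the line and mitochondrial right. The strongest colours are Lars2 in replicate 4 (-0.35) and Tars2 (-0.28) and Sars2 (-0.24) in replicate 2; cytosolic members stay between -0.18 and 0.12.

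Promoters were examined because many synthetase genes are known targets of ATF4, which binds elements with the letters TGATGNAA. RefSeq promoters of build GRCm38.p6, from 250 bases before to 50 after the start of transcription, covered 27 of 36 members, 13 cytosolic and 14 mitochondrial. Nars, Vars, Hars, Rars, Lars, Wars, Cars, Hars2 and Pars2 were not covered. On either strand, TGATGNAA was found in 5 of 13 cytosolic members (Gars, Tars, Iars, Aars, Yars) and in 0 of 14 mitochondrial members, beside 4.51% of 27025 genes in the table. A match in each of these genes is printed in a window of 30 bases to show the letters, 5′ to 3′ along the gene's strand, with the matched letters in capitals.
Gars, chr6:55037960-55037989, plus strand: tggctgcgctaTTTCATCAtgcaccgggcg
Tars, chr15:11399655-11399684, minus strand: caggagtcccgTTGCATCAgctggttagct
Iars, chr13:49682126-49682155, plus strand: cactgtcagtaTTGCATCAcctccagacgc
Aars, chr8:111033840-111033869, plus strand: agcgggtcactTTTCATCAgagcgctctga
Yars, chr4:129189895-129189924, plus strand: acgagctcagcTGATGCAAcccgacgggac

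The first base of the matches printed lay 30 bases before the start in Gars and 15 before in Tars, and at base 8 of the transcript in Iars, 4 in Yars and 10 in Aars. The 5 members with the element ran from 84.6 TPM (Yars) to 434 TPM (Gars). The 8 covered cytosolic members without it ran from 76.0 TPM (Eprs) to 246 TPM (Mars), so the ranges overlapped. The E-box CACGTG, which Myc binds among other factors, was in 4 of 13 cytosolic members (Tars, Iars, Farsb, Aars) and 1 of 14 mitochondrial members (Ears2), beside 8.09% of genes. Tars, Iars and Aars held both kinds of letters. A match describes letters in this window and no binding was measured here.

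The list of the response to uncharged transfer RNA, which holds the kinase Eif2ak4 and its partner Gcn1l1, Atf4 and mostly effectors and targets of that pathway, had a median of 57.9 TPM over 11 genes. Orders within this and the other partner lists are by deposited length. Ddit4, a stress-induced inhibitor of mTORC1, was at 702, 552, 664 and 699 TPM in replicates 1 to 4, and Atf4 itself at 643, 646, 602 and 656 TPM in replicates 1 to 4, with ranges that overlapped. Impact, an inhibitor of GCN2 activation, had the lowest mean, 13.9 ± 1.30 TPM, and overlapped with the glutathione-degrading enzyme Chac1 (14.3 ± 1.46 TPM). Atf4 was above every synthetase in each library by deposited length. With the longest-coding transcript length it was at 437, 440, 410 and 444 TPM, below Lars2 at 571, 618, 647 and 443 TPM in all but replicate 4. ATF4 is controlled largely at translation, which was not measured. Of the scaffolds of the synthetase complex, Eef1e1 was at 187, 225, 191 and 202 TPM in replicates 1 to 4, Aimp2 at 123 ± 13.6 TPM and Aimp1 at 36.5 ± 1.24 TPM. The spread among scaffolds depended on length. With the longest-coding transcript length the means were 137 TPM for Eef1e1, 117 TPM for Aimp2 and 123 TPM for Aimp1.

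Mitochondria charge glutamine transfer RNA indirectly, through Ears2 and the amidotransferase subunits Gatb, Gatc and Qrsl1, and Mtfmt formylates the initiator methionyl transfer RNA. These 4 genes had a median of 16.8 TPM. Gatc was highest at 39.9 ± 3.34 TPM, Mtfmt second at 17.8 ± 1.51 TPM and Gatb lowest at 14.5 ± 0.963 TPM. Ears2, at 10.9 TPM, lay below all 4 in every library by deposited length, but above Gatb in every library with the longest-coding transcript length (18.7 against 12.2 TPM on average). The 6 synthetase-related and editing genes had a median of 14.6 TPM, from the D-aminoacyl-tRNA deacylase Dtd1 at 34.2 ± 2.64 TPM and the peptidyl-tRNA hydrolase Ptrh2 at 25.8 ± 0.803 TPM to Aarsd1, an alanyl editing protein, at 3.02 ± 0.306 TPM. The 6 genes of the selenocysteine route, which starts from serine charged by Sars, had a median of 42.0 TPM, with the selenophosphate synthetase Sephs2 (139 ± 1.50 TPM) and the elongation factor Eefsec (65.1 ± 6.04 TPM) highest and the kinase Pstk lowest (5.28 ± 0.434 TPM). Pstk was at 25.0 TPM with the longest-coding transcript length, above Sepsecs at 10.9 TPM. Of 5 genes acting on transfer RNA ends, modification or export, with a median of 91.4 TPM, the pseudouridine synthase Pus1 (146 ± 10.3 TPM) and the exportin Xpot (114 ± 8.24 TPM) had the highest means, and the CCA-adding enzyme Trnt1 the lowest (48.6 ± 5.20 TPM). Trnt1 overlapped with the methyltransferase Trmt5 (50.6 ± 2.18 TPM), and with the longest-coding transcript length it was above it, at 63.8 against 34.4 TPM. Of these 35 partner genes, 0 were called as varying by edgeR, against 0.00734% of all genes tested.

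The position of members in the genome bears on how reads were assigned. Members lay on 15 chromosomes, and 2 pairs of members were neighbours within 100000 bases. Hars and Hars2 on chromosome 18 are divergent and overlap by 198 bases at their 5′ ends, and Iars2 and Eprs on chromosome 1 are divergent with 33647 bases between them. Counting used strand, per the file headers, so reads of Hars and Hars2 fall to the gene of their strand. Of 36 members, 9 shared at least 100 bases at 95% identity or more with a transcript of another gene. On the same strand these were Aars and Iars. Aars shared 1326 bases with Exosc6 at 100% identity, and Iars 1656 bases at 96.0% with the pseudogene Gm4849 (0.240 TPM). The counts of Aars and Iars are uncertain to that extent. Exosc6 had a mean of 0 counts, and whether reads in the shared bases were counted for neither gene was not tested. The 0 TPM of Exosc6 may thus not be its level. The other 7 overlapped genes of the opposite strand, the longest being 2034 bases between Iars2 and Rab3gap2.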

How the data were processed

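The authors deposited raw counts of fragments per gene, per the file headers. They ran featureCounts (1.4.6-p4, paired fragments, strand used) against the GENCODE M13 genes of mm10. Header names carry star2, with no aligner version given. The assay label is total RNA-seq, although the linked library protocol is for poly(A)+ RNA. TPM was computed here from the deposited counts and lengths. Gene types and symbols came from GENCODE M21, and 50376 of 50600 identifiers matched a symbol. Total counts per library were 51460018 to 121477975, and no library pair agreed within sampling noise.

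The members and lists were chosen with earlier results of these data known. Pairs were compared by log2(TPM + 0.1) within libraries with exact sign-flip tests. For variation between libraries, edgeR 4.0.16 was run in R 4.3.3 (TMM, filterByExpr, intercept-only fit, robust prior with 6.54 degrees of freedom, threshold 0.05) and checked on simulated data. DESeq2 1.42.0 gave alternatives. Other alternatives were a pseudocount of 1, CPM, other thresholds, TMM-scaled levels, leaving out each replicate and, added after the data were seen, transcript length from the longest coding sequence (at most the deposited length) and leaving out the leucine pair. Stretches shared between transcripts were searched with blastn 2.17.0, and promoters came from RefSeq, where 1 match is not reported here. All members are named, with the 2 highest and the lowest gene of each partner list. Gm42418 and the other technical genes, and Qrsl1, Chac1, Gcn1l1, Sepsecs and Trmt5 are named only to describe members or lists, Qrsl1 and those after it chosen after their values were seen.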

Additional observations from a re-analysis of the deposited data

Results flagged for a closer look

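Over the 36 members, the 17 pairs and the median pair difference, 54 groups of 4 library values were examined for a library far from the others, by Dixon's 95% critical value for the gap over the range. There were 6 such values, where chance gives about 1 in 20. Gars in replicate 3 was at 419 TPM, below the 438 to 440.2 TPM of the other libraries. Qars in replicate 4 was at 138 TPM, above 126 to 128 TPM. Mars2 in replicate 2 was at 14.2 TPM, above 12.2 to 12.4 TPM, and Yars2 in replicate 2 was at 43.1 TPM, above 38.0 to 38.6 TPM. The difference of Aars and Aars2 was 1.402 on the log2 scale in replicate 1, below 1.56 in each of the others. The difference of Hars and Hars2 was 3.06 in replicate 2, below 3.25 to 3.28. No cause was tested for any of them.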

How the results depend on the processing

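The median pair difference lay between 2.30 and 2.96 under all its alternatives, the former without replicate 2 and the latter with the longest-coding transcript length, and 15 pairs had the cytosolic enzyme higher in every library under each alternative run. Of the 17 single differences, 16 kept their direction with that length, and Farsa minus Farsb reversed to 0.11. With that length 33 of 36 mean levels moved by more than their SD, and 0 of 36 did with TMM scaling or without any 1 replicate. The moves with that length include the shift common to all genes from scaling each library to the same total. The count of members at 10 TPM or more, 33, became 36 at a threshold of 1 TPM and 22 at 50 TPM. The count of genes varying between libraries was 1 with edgeR, 98 without a filter on low counts and 63 as DESeq2 dispersion outliers. It ranged from 1 to 18 when 1 replicate was left out, with 2 without replicate 1 and 18 without replicate 2, and the cause was not tested. Libraries could not be paired between groups because there is 1 group, and genes were paired within libraries. The exact sign-flip test cannot go below 0.13 with 4 libraries or 0.25 with 3.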
